A study of Mus musculus with 14 samples.

Results

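Translation initiation factors are the proteins that bring a ribosome, the initiator tRNA and an mRNA together at the start codon. Their transcripts were measured here in the livers of mice fed krill powder or a control diet. Members were all genes whose probe sets carry a single symbol starting with Eif1, Eif2, Eif3, Eif4, Eif5 or Eif6 in the table that pairs the array's probe sets with genes. The rule found 47 of 18193 genes with a probe set of a single symbol, read by 133 probe sets. Of these, 44 genes passed a filter on low signal and were tested among 11308 genes, and Eif2ak4, Eif4a3 and Eif5a2 did not pass it. Another 6 probe sets that list an initiation factor together with a further gene were left out. Eif1, Eif2s1, Eif3g, Eif3j1, Eif3j2, Eif4g1, Eif4e1b and Eif4ebp3 were not analysed here. The rule used no measured value other than the mean signal over all arrays, which chose 1 probe set per gene.

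Initiation begins when eIF2, carrying GTP, delivers the initiator tRNA to the small ribosomal subunit together with eIF1, eIF1A, eIF3 and eIF5. The eIF4F complex (the cap-binding protein eIF4E, the scaffold eIF4G and the helicase eIF4A) recruits this particle to the capped mRNA, and eIF5B later joins the large subunit. The pathway is controlled at eIF4E, which the eIF4E-binding proteins hold back until mTORC1 phosphorylates them, and at eIF2, which stress-activated kinases phosphorylate so that its exchange factor eIF2B cannot reload it. In liver both controls are known to respond to feeding, amino acids and insulin.

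All animals were male CBA/J mice, housed singly on 84 kcal per week of a purified diet, and 1 liver was read on each of 14 Affymetrix arrays. From 2 months of age, 7 mice stayed on the control diet and 7 received a test diet with krill powder, of equal total protein and total lipid but other amino acids and fatty acids. The liver was sampled at 5 months, which is 3 months into the diets. Values are MAS5 signal, a linear brightness per probe set in arbitrary units, so levels of different probe sets cannot be compared with each other.

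Of the 44 tested genes, 16 were higher and 13 lower in krill livers at an adjusted p under 0.05 (limma, Benjamini-Hochberg over 11308 genes), and 15 did not pass. Over all tested genes 22.9% were called higher and 24.8% lower, 47.7% in all, so calls were common throughout these arrays. The median log2 change (krill minus control of log2 signal with 16 added) was -0.08 over the initiation factors and 0.04 over all tested genes. The calls included 4 rises and 7 falls of at least 2-fold, against 9.99% and 12.9% of all genes. In 9 members every krill array lay above every control array and in 5 every krill array lay below, against 6.52% and 7.61% of all genes. The 4 rises of at least 2-fold were all in eIF3 (Eif3e, Eif3i, Eif3h and Eif3k), and the 7 falls were in Eif2b1, Eif3c, Eif4ebp2, Eif4h, Eif4e, Eif3l and Eif2ak1. In this fit the factor complexes did not move as units. eIF2 with its substitutes, eIF2B, the eIF2 kinases, eIF3, the eIF4E family, the eIF4E-binding proteins and the late factors each held calls in both directions. Only eIF3 still did so without krill replicates 2, 4, 5 and 7 (6 higher and 4 lower). The same held with the level of spike-in probe sets as a covariate (6 and 1) and under scaling on them (2 and 5).

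**Figure D1:**
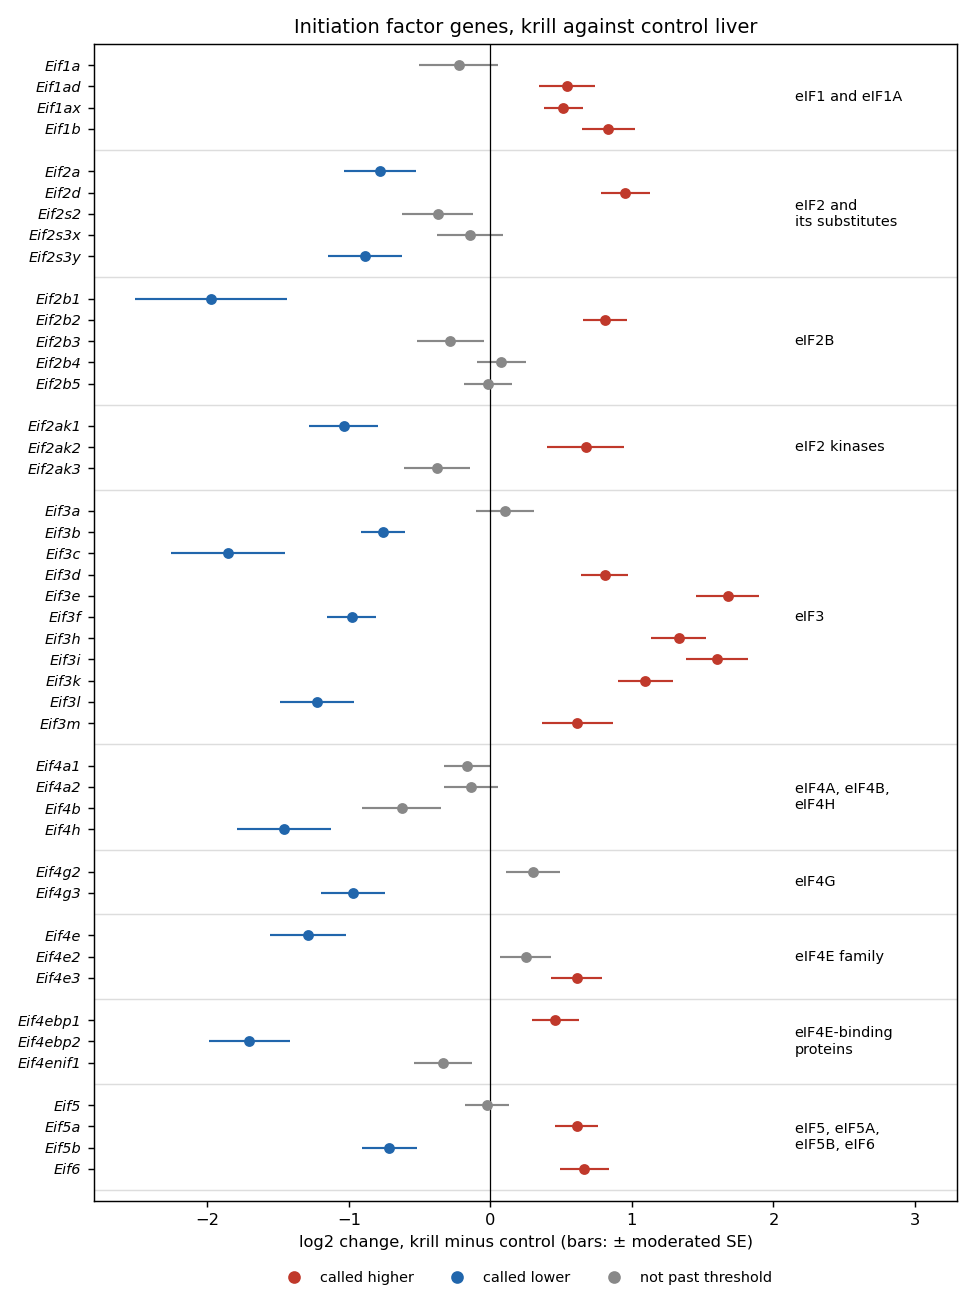
Log2 change of each of the 44 tested initiation factor genes, krill minus control (horizontal axis), with the moderated standard error as bars and genes grouped by factor complex. Red points were called higher (16), blue points lower (13) and grey points did not pass. Under scaling on spike-in probe sets, Eif1ad, Eif1ax, Eif2ak2, Eif3m, Eif4e3, Eif4ebp1, Eif5a and Eif6 turn below 0.

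Most quality measures of the arrays were not equal between the diets, and they stand beside every value that follows. The 3'/5' signal ratio of the pyruvate carboxylase control is a sign of RNA shortening where it is high. Its mean was 6.55 (SD 2.34) over the 7 control arrays and 18.3 (SD 5.69) over the 7 krill arrays. The diets did not overlap (exact permutation test, two-sided, p = 0.000583, adjusted p = 0.00146 over 5 measures). The actin ratio was 2.09 (SD 0.24) over control and 2.98 (SD 0.49) over krill arrays, without overlap (exact permutation test, p = 0.000583). The Gapdh ratio was 0.81 (SD 0.05) over control and 0.96 (SD 0.33) over krill arrays, with overlap (exact permutation test, p = 0.198). Poly-A controls had a mean level of 10.89 (SD 0.35) over control and 12.01 (SD 0.88) over krill arrays (exact permutation test, p = 0.0122). Hybridisation spike-ins, control transcripts added in equal amounts to each array, had a mean log2 level of 12.93 with an SD of 0.22 over control arrays, and of 13.72 with an SD of 0.62 over krill arrays (exact permutation test, p = 0.0128, adjusted p = 0.016). Krill replicates 2, 4, 5 and 7 lay at 14.13 or more and krill replicates 1, 3 and 6 at 13.18 or less. Where these sets of krill replicates are set apart in this report, they were divided on this level. Scaling on the spike-ins moved the median change of all genes to -0.71, and the split of the initiation factors from 16 higher and 13 lower to 2 and 22, against 2.95% and 48.2% of all genes. Centring each array on its median gave -0.36 and a split of 5 and 15, against 8.85% and 33% of all genes. With the spike-in level as a covariate 10 members were higher and 4 lower, against 6.99% and 10.5% of all genes (17.5% in all). With the 3'/5' index as a covariate limma called 0 of 11308 genes, and at an unadjusted p under 0.05 it gave 1873 genes, 10 of them initiation factors. The index does not overlap between the diets, and its part in the results cannot be told apart from that of diet. Hepatocyte markers (Alb, Ttr and others, 5 of 7 measured) summed to 255932 to 381334 in control and 324957 to 580802 in krill arrays and 3 of the 5 were called higher. Under quantile normalization 0 of them were higher and 2 lower, and their median change was 0.53 over all arrays and 0.26 without krill replicates 2, 4, 5 and 7, where limma no longer called the 3. Summed lymphocyte markers (6 of 6 measured) were 542 to 801 in control and 714 to 1548 in krill arrays, with 1 of 3 tested called higher, and macrophage markers (7 of 8 measured) 7026 to 9417 and 8282 to 16181, with 2 of 6 higher and 2 lower. The ranges of the hepatocyte, lymphocyte and macrophage sums overlapped between the diets, as did those of sinusoidal endothelial, stellate, cholangiocyte and erythroid markers. The part of these markers in the results was not tested. In whole liver, fewer cells of a type and less RNA per cell cannot be told apart.

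The eIF3 complex, the large scaffold that binds the small ribosomal subunit and keeps the initiation complex together, held the called rises of at least 2-fold. Of its 11 measured subunits 6 were higher and 4 lower, against 22.9% and 24.8% of all genes, and 1 did not pass. Their median log2 change was 0.61. Under spike-in scaling, which lowers the median of all genes, 2 were higher and 5 lower and the median was -0.17. Eif3e, Eif3h, Eif3i, Eif3k, Eif3d and Eif3m rose, while Eif3c, Eif3l, Eif3f and Eif3b fell.

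Eif3e, a subunit of the outer shell, read 4806 at the lowest, 6838 at the median and 11421 at the highest of the control arrays, and 14756, 21440 and 33491 in krill arrays. Its log2 change was 1.68 (SE 0.22, adjusted p = 3.32e-05, limma), 3.2-fold. The diets did not overlap, and within the krill group replicates 2, 4, 5 and 7 (21440 or more) were above replicates 1, 3 and 6 (19500 or less). Eif3i, a small subunit built of WD repeats, read 7438, 9653 and 11569 in control and 15325, 24390 and 50573 in krill arrays, a log2 change of 1.60 (SE 0.22, adjusted p = 3.86e-05). No array of the diets overlapped here either, and both probe sets of Eif3i and the 3 of Eif3e past the filter were called higher. Eif3h, a subunit that holds an MPN domain, read 5494, 6352 and 7324 in control and 10341, 15058 and 25720 in krill arrays. Its change of 1.33 (SE 0.19, adjusted p = 5.18e-05) again came without overlap, and krill replicates 2, 4, 5 and 7 were again the highest arrays. Eif3k, a small peripheral subunit, read 2586, 3470 and 4106 in control and 4608, 7487 and 11113 in krill arrays, with a log2 change of 1.10 (SE 0.19). Eif3d, the subunit that can itself bind the mRNA cap, read 2151, 2809 and 3382 in control and 3616, 4484 and 6159 in krill arrays, with a log2 change of 0.81 (SE 0.17). The diets did not overlap for these genes. Eif3e, Eif3h, Eif3i, Eif3k and Eif3d were also called higher without krill replicates 2, 4, 5 and 7, at 1.29, 0.89, 1.14, 0.91 and 0.60. Under spike-in scaling only Eif3e (0.89) and Eif3i (0.81) of all initiation factors were still called higher.

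Eif3m was the weakest of the called rises: its arrays overlapped, at 1747, 2829 and 4856 in control and 2068, 4871 and 5701 in krill livers, with a log2 change of 0.61 (SE 0.25, adjusted p = 0.0488). Here krill replicates 1, 3 and 6 were the highest (5241 to 5701), whereas for Eif3e they were the lowest, and the change without the other 4 krill arrays was 1.01 (adjusted p = 0.00752). The call was lost in 10 of the 14 fits that left out 1 array.

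Of the subunits that fell, Eif3c belongs with Eif3a and Eif3b to the structural core. It read 2265, 3711 and 4361 in control and 158, 835 and 2579 in krill arrays, a log2 change of -1.86 (SE 0.40, adjusted p = 0.00124). Only the highest krill array, at 2579, reached into the control range, and all 4 probe sets of Eif3c were called lower. Eif3f, the MPN partner of Eif3h, read 3908, 5723 and 6432 in control and 1707, 2727 and 3754 in krill arrays, a change of -0.98 (SE 0.17, adjusted p = 0.000247). Eif3b, which carries the RNA-recognition motif of the core, read 1601, 1871 and 1946 in control and 692, 1025 and 1331 in krill arrays, a change of -0.76 (SE 0.16). Eif3l, the binding partner of Eif3k, read 2180, 2373 and 3133 in control and 511, 927 and 2079 in krill arrays, a change of -1.23 (SE 0.26). For Eif3f, Eif3b and Eif3l every krill array was below every control array. Without krill replicates 2, 4, 5 and 7 the changes of Eif3c, Eif3f, Eif3b and Eif3l were -1.06, -0.78, -0.57 and -0.49, all still called lower. For Eif3l the 4 omitted arrays read 927 or less and the other 3 read 1376 to 2079. With the spike-in level as a covariate Eif3f alone of these genes was called lower (-0.71, adjusted p = 0.0254, limma). Eif3c (-0.94), Eif3b (-0.54) and Eif3l (-0.35) did not pass there.

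Eif3a, the largest core subunit, had no single answer. The probe set chosen for it read 2524, 2790 and 3419 in control and 1835, 2887 and 6113 in krill arrays, with a log2 change of 0.10 (SE 0.21, adjusted p = 0.697). Its other 3 probe sets were each called lower, at -0.82, -2.09 and -2.54. Choosing the probe set by mean linear signal, an alternative added after these values were seen, replaced the chosen one by that at -0.82 (adjusted p = 0.00289).

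**Figure D2:**
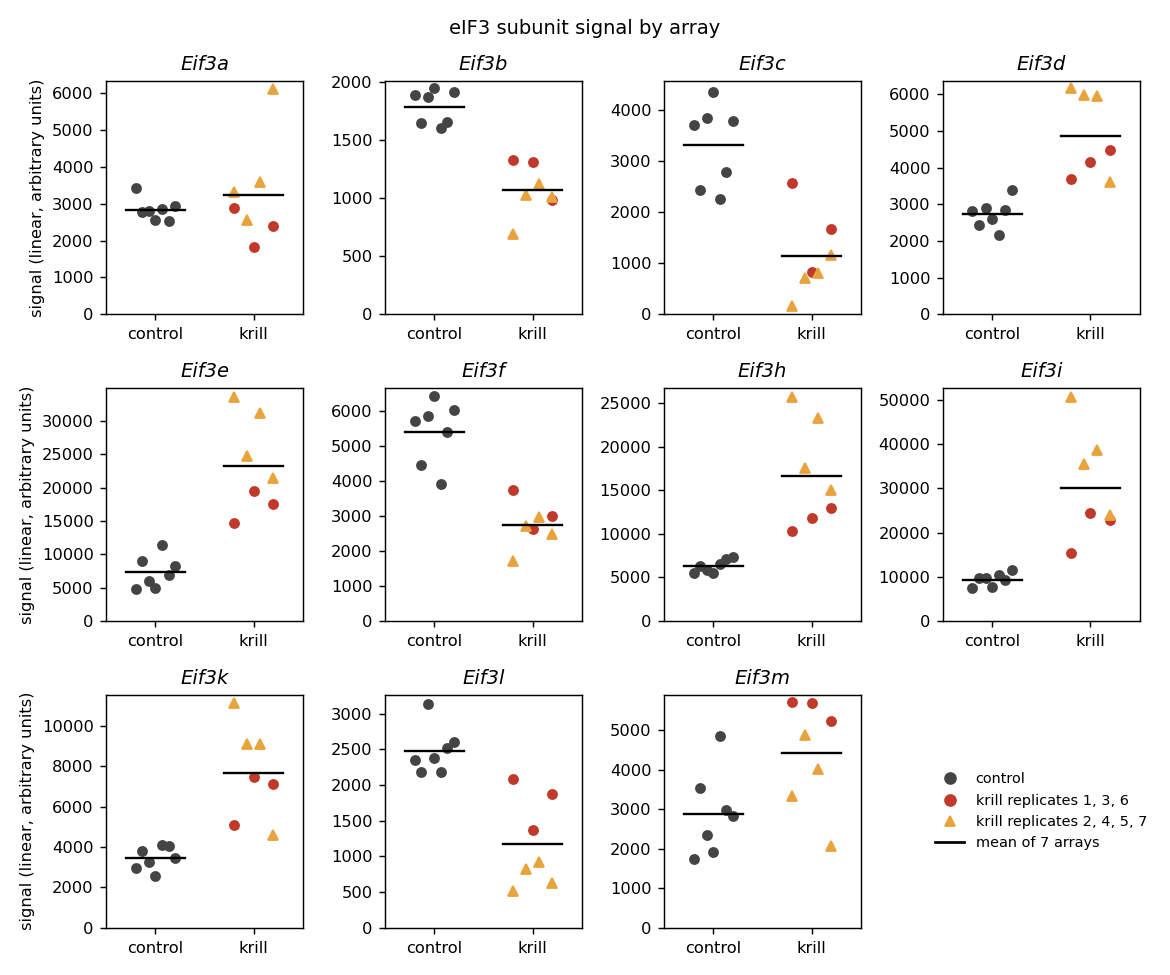
Linear signal of the 11 measured eIF3 subunits on each array, with the control and krill groups side by side, the mean of 7 arrays as a line, and krill replicates 2, 4, 5 and 7 as triangles. For Eif3d, Eif3e, Eif3h, Eif3i and Eif3k all krill arrays lie above all control arrays in the deposited scaling, and for Eif3b, Eif3f and Eif3l all lie below. In Eif3e and Eif3h the triangles are the highest points and in Eif3l the lowest. Each panel has its own vertical scale starting at 0.

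The promoters of eIF3 subunits that moved in opposite directions are shown to set side by side what lies upstream of them. Each is the 250 bases before the transcription start in RefSeq on GRCm38.p6, read 5′ to 3′ along the gene, with matches to 5 searched motifs in capitals. Eif3d (chr15:77970825-77971074, minus strand) and Eif3k (chr7:28981889-28982138, minus strand) rose. Eif3c (chr7:126566367-126566616, minus strand) and Eif3l (chr15:79074973-79075222, plus strand) fell.
Eif3d: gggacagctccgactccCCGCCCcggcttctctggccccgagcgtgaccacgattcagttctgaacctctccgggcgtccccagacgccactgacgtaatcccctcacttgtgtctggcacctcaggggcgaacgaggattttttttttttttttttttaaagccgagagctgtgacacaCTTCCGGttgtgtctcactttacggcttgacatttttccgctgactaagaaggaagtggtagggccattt
Eif3k: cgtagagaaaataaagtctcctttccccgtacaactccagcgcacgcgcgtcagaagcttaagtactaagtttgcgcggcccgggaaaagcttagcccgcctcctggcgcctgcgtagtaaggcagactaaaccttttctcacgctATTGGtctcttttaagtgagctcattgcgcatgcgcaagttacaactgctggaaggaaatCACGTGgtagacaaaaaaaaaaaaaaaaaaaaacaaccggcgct
Eif3c: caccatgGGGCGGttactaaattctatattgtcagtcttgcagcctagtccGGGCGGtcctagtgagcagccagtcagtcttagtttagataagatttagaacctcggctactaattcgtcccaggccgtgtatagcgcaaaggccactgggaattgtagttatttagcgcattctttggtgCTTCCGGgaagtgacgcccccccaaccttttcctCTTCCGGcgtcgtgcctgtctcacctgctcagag
Eif3l: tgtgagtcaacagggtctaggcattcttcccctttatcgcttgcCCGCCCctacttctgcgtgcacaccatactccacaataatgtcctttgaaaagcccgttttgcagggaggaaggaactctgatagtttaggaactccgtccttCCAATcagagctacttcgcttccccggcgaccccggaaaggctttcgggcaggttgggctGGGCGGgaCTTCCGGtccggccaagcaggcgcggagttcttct

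The motifs searched on both strands were the letters CCAAT, the E-box CACGTG, the core CCGGAAG that ETS factors bind, the GC box CCGCCC and the TATA letters TATAAA. No matches overlap in the promoters printed. The ETS core starts 70 bases before the start of Eif3d, 35 before that of Eif3l, and 68 and 34 before that of Eif3c, each on the opposite strand. It was therefore found in subunits of both directions. Eif3k holds instead a CCAAT box 104 bases and an E-box 44 bases before its start, and Eif3l has a CCAAT box 103 bases before its own. Promoters of 38 members were matched. The ETS core was in 9 of the 38 and in 7.05% of all 27025 promoters of this length, the E-box in 6 and 6.05%, and the GC box in 27 and 32.9%. CCAAT was in 11 of the 38 and 34.5% of all promoters, and the TATA letters in 3 and 13.0%. Median GC content was 59.6% in the 38 members' promoters and 52.0% in all. Among members with a promoter, the ETS core was in 5 of the 10 called higher and 3 of the 13 called lower, and all 3 promoters with TATA letters (Eif3b, Eif3f, Eif2s3y) belong to genes called lower. These are descriptions of letters, not of bound sites.

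The eIF4E-binding proteins, which occupy the face of eIF4E that eIF4G needs, were split as well. Eif4ebp2 read 1613, 2770 and 3950 in control and 453, 675 and 1791 in krill arrays, and only the highest krill array overlapped the control range. Its log2 change was -1.70 (SE 0.29, adjusted p = 0.000158), 3.25-fold, and each of its 4 probe sets past the filter was called lower, at -1.70 to -2.87. Without krill replicates 2, 4, 5 and 7 the change was -1.51 (adjusted p = 0.00186). Eif4ebp1, the mTORC1-controlled form best known from insulin signalling, read 3747, 4131 and 5063 in control and 4182, 5737 and 8760 in krill arrays. Its change of 0.46 (SE 0.16, adjusted p = 0.0276) had overlapping arrays, was called in 1 of its 3 probe sets and not in their average (adjusted p = 0.137), and was 0.34 without the 4 krill arrays, where it did not pass (adjusted p = 0.103). Eif4enif1, which shuttles eIF4E into the nucleus, read 421, 502 and 678 in control and 271, 352 and 640 in krill arrays, at -0.33 (adjusted p = 0.184). Leaving out the 4 krill arrays it was called lower, at -0.63 (adjusted p = 0.013). The log2 ratio of Eif4ebp1 to Eif4ebp2 signal within an array, which a scaling of the whole array leaves nearly the same, was 0.61 ± 0.53 over the control and 2.77 ± 0.997 over the krill arrays (SD, n = 7 each). The difference of 2.16 passed an exact permutation test (two-sided, p = 0.00117, adjusted p = 0.00233 over 6 pairs).

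The promoter of Eif4ebp2 is printed because its gene was called lower on every probe set past the filter, and it holds the same ETS core as several eIF3 subunits. It lies at chr10:61452670-61452919 on the minus strand, with the ETS core 124 bases before the start on the opposite strand and GC boxes 215 and 46 bases before it.
Eif4ebp2: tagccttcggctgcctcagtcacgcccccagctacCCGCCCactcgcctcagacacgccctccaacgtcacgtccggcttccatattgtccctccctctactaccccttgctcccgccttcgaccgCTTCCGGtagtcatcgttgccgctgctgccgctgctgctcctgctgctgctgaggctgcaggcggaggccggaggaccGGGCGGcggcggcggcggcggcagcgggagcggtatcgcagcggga

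The cap-binding family held calls in both directions, but its fall rests on 1 probe set of Eif4e. Eif4e, the cap-binding protein itself, read 1837, 2218 and 2405 in control and 422, 729 and 1787 in krill arrays, a log2 change of -1.29 (SE 0.27, adjusted p = 0.000894) without overlap. Krill replicates 2, 4, 5 and 7 read 729 or less and replicates 1, 3 and 6 read 1441 to 1787, and without the 4 the change was -0.50 (adjusted p = 0.0122). The probe sets of Eif4e disagree: 1 of the 4 was called lower, 1 was called higher at 0.77, and the others gave 0.21 and 0.22. Averaged over its probe sets the change of Eif4e was -0.023 (adjusted p = 0.9). Eif4e2, a homologue that binds caps without joining eIF4G, read 1670, 1853 and 2309 in control and 1220, 2466 and 3031 in krill arrays, at 0.25 (adjusted p = 0.254). Eif4e3 read 423, 534 and 625.1 in control and 552, 823 and 1199 in krill arrays, a rise of 0.61 (SE 0.18, adjusted p = 0.00956) with overlap, and 0.30 (adjusted p = 0.207) without the 4 krill arrays. The log2 ratio of Eif4e to Eif4e2 used the Eif4e probe set that was called lower. This ratio was 0.23 ± 0.19 over the control and -1.31 ± 0.81 over the krill arrays (SD, n = 7 each), with no overlap (exact permutation p = 0.000583, the smallest the 3432 assignments allow, adjusted p = 0.00175).

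Among the partners of eIF4E in eIF4F, Eif4g3, a close relative of the main scaffold, fell. It read 640, 1087 and 1706 in control and 433, 546 and 732 in krill arrays, a change of -0.97 (SE 0.23, adjusted p = 0.00213), and -1.07 without the 4 krill arrays. Its probe sets disagree as those of Eif4e do, with another called higher at 1.19 and the average at 0.26 (adjusted p = 0.362). Eif4e and Eif4g3 were 2 of 29 members with several probe sets past the filter that had calls in both directions, against 4.29% of 4759 such genes in all. Eif4g2, the scaffold that lacks the eIF4E-binding part and serves cap-independent initiation, read 13976, 16409 and 17238 in control and 14374, 17600 and 38646 in krill arrays, at 0.30 (adjusted p = 0.196).

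The helicase Eif4a1 read 7874, 9049 and 10470 in control and 5768, 8255 and 11665 in krill arrays (-0.16, SE 0.17, adjusted p = 0.418). Its near-identical relative Eif4a2 read 14636, 19175 and 26036 in control and 13457, 16081 and 25718 in krill arrays (-0.14, SE 0.19, adjusted p = 0.571). Both ranges overlap, although the other 2 probe sets of Eif4a1 were called lower at -1.03 and -1.22. Their ratio differed by -0.03 between diets (exact permutation p = 0.787), while the control SD of that ratio was 0.21. The helicase cofactors diverged more: Eif4h read 8715, 9527 and 9985 in control and 1186, 3192 and 9459 in krill arrays, a change of -1.46 (SE 0.33, adjusted p = 0.00174). The control arrays lay within a narrow band and 6 of the 7 krill arrays lay below it, replicate 1 alone reaching it. Eif4b, which shares its cofactor role, read 3839, 4213 and 4599 in control and 1037, 2392 and 5896 in krill arrays, at -0.63 (adjusted p = 0.069). For both genes krill replicates 2, 4, 5 and 7 were all below replicates 1, 3 and 6. Without the 4 arrays Eif4h was at -0.50 (adjusted p = 0.0271) and Eif4b at 0.13. The log2 ratio of Eif4b to Eif4h rose from -1.16 ± 0.09 to -0.33 ± 0.25 (SD, n = 7 each) with no overlap, a difference of 0.83 (exact permutation p = 0.000583, adjusted p = 0.00175).

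**Figure D3:**
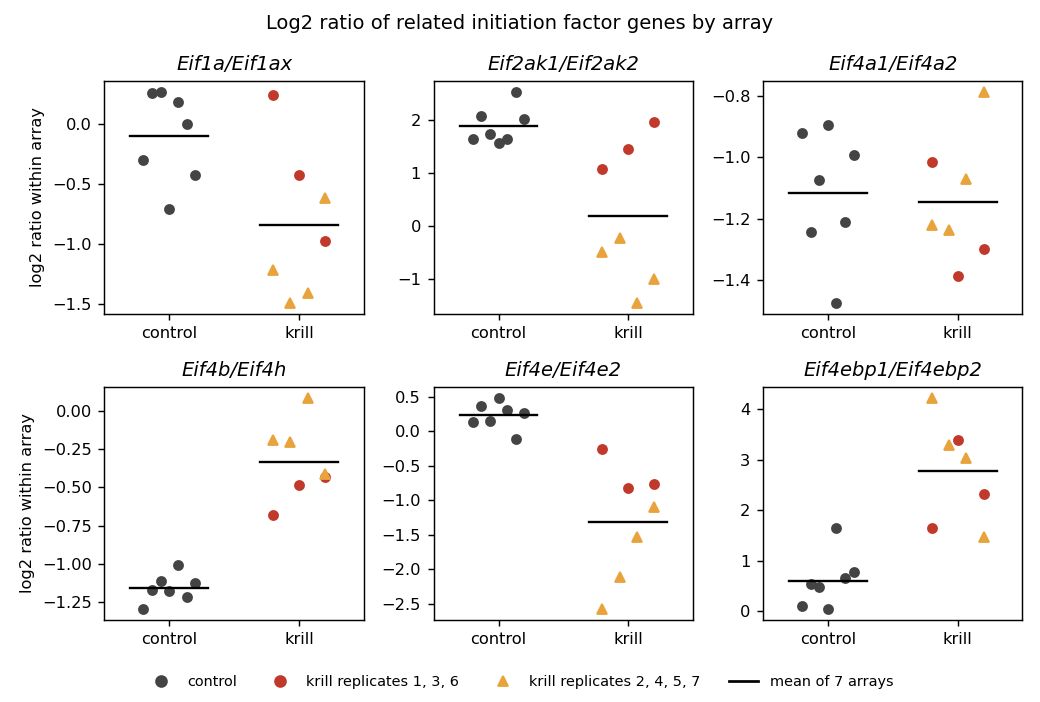
Log2 ratio of the signals of 2 related genes within each array, for 6 pairs, with control and krill groups, the mean of 7 arrays as a line and krill replicates 2, 4, 5 and 7 as triangles. Eif4b/Eif4h and Eif4e/Eif4e2 separate the diets completely, Eif4a1/Eif4a2 differs by -0.03, and in Eif2ak1/Eif2ak2 the triangles alone lie below 0. Each panel has its own vertical scale.

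The eIF2 heterotrimer carries the initiator tRNA, and its measured subunits mostly missed the threshold. Eif2s2, the beta subunit, read 4595, 7063 and 10418 in control and 2923, 6253 and 9855 in krill arrays (-0.37, adjusted p = 0.224), although 3 of its 6 probe sets were called lower. The gamma subunit is encoded on both sex chromosomes in mice. Its X copy Eif2s3x gave -0.14 (adjusted p = 0.624), and its Y copy Eif2s3y read 1535, 1956 and 2253 in control and 508, 1024 and 2148 in krill arrays, a fall of 0.89 on the log2 scale (SE 0.26, adjusted p = 0.00981). That fall was 0.23 in size and not called without the 4 krill arrays (adjusted p = 0.336). The factors that can deliver initiator tRNA without eIF2 went apart. Eif2d rose without overlap, from 1316, 1495 and 1598 in control to 1736, 3180 and 4071 in krill arrays (0.95, SE 0.17, adjusted p = 0.000294), and was called without the 4 arrays as well (0.60, adjusted p = 0.00879). Eif2a, a single protein unrelated to the alpha subunit, read 710, 859 and 977 in control and 190, 447 and 953 in krill arrays (-0.78, SE 0.25, adjusted p = 0.0178). Its call was lost without the 4 arrays, where the change was -0.16, and under quantile normalization (-0.71, adjusted p = 0.0652).

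In eIF2B, the exchange factor that reloads eIF2 with GTP, Eif2b1 fell and Eif2b2 rose. Eif2b1, the regulatory alpha subunit, read 525, 839 and 1346 in control and 51, 179 and 915 in krill arrays, a log2 change of -1.97 (SE 0.54, adjusted p = 0.00628). The krill arrays fell into separate ranges: replicates 2, 4, 5 and 7 read 51 to 179, and replicates 1, 3 and 6 read 630 to 915, inside the control range. Without the 4 arrays the change was -0.27 (adjusted p = 0.434). Eif2b2, the beta subunit, did not overlap between the diets, at 884, 971 and 1081 in control and 1232, 1699 and 2522 in krill arrays (0.81, SE 0.16, adjusted p = 0.00049), and stayed called without the 4 arrays (0.58). Of its 3 probe sets past the filter only 1 was called, and the others gave 0.32 and 0.49 with overlap. The average of all 3 was called higher, at 0.54 (adjusted p = 0.018, limma). Eif2b5, the catalytic epsilon subunit, read 741, 944 and 1100 in control and 567, 1027 and 1118 in krill arrays (-0.02, adjusted p = 0.936). Eif2b3, the gamma subunit, read 462, 516 and 612 in control and 154, 465 and 638 in krill arrays (-0.28, adjusted p = 0.326), and Eif2b4 gave 0.08.

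The kinases that phosphorylate eIF2 also differed among themselves. Eif2ak1, the haem-regulated kinase HRI, read 980, 1122 and 1186 in control and 273, 634 and 923 in krill arrays, a fall of 1.04 on the log2 scale (SE 0.24, adjusted p = 0.00215). No arrays overlapped, its 3 probe sets past the filter were all called lower (2 others were below it), and it was called without the 4 krill arrays at -0.42 (adjusted p = 0.029). Krill replicates 2, 4, 5 and 7 (273 to 634) lay below replicates 1, 3 and 6 (697 to 923). With the spike-in level as a covariate Eif2ak1 was at -0.40 (adjusted p = 0.271, limma) and was not called. Eif2ak2, the double-stranded RNA-activated kinase PKR, read 178, 302 and 389 in control and 209, 552 and 781 in krill arrays (0.67, SE 0.27, adjusted p = 0.0479). Its probe sets disagree: another was called lower at -1.08 (adjusted p = 0.023), the third gave -0.06, and their mean changed by -0.15 (adjusted p = 0.499). Krill replicates 2, 4, 5 and 7 alone were above the control range, at 552 to 781, and without them the change was -0.02. Eif2ak3, the endoplasmic reticulum kinase PERK, read 337, 495 and 666 in control and 196, 416 and 568.3 in krill arrays (-0.38, adjusted p = 0.184), and -0.79 (adjusted p = 0.0299) without the 4 arrays. Eif2ak4, the amino acid sensor GCN2, was below the signal filter and read 77.8, 152 and 210 in control and 7.26, 18.8 and 136 in krill arrays. In a fit with no filter its change was -1.71 (adjusted p = 0.00449), where the median change of all genes was 0.32. The log2 Eif2ak1/Eif2ak2 ratio was 1.90 ± 0.35 over the control and 0.19 ± 1.31 over the krill arrays (SD, n = 7 each, exact permutation p = 0.00641, adjusted p = 0.00962). Over control and krill replicates 1, 3 and 6 alone the difference of -1.71 shrank to -0.40 (exact permutation, adjusted p = 0.275).

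Genes grouped by symbol as eIF1 and eIF1A, among them factors that guide start-site selection on the small subunit, leaned upward. Of the 4 measured eIF1 and eIF1A genes 3 rose and 0 fell, with a median of 0.53, against 22.9% of all genes called higher. Eif1b, a close copy of the scanning factor eIF1, read 1071, 1274 and 1557 in control and 1706, 2128 and 4158 in krill arrays, without overlap (0.83, SE 0.19, adjusted p = 0.0015). Eif1ax, the X-linked eIF1A, read 1663, 1908 and 2418 in control and 2354, 2844 and 3199 in krill arrays (0.52, SE 0.14, adjusted p = 0.00591). All 3 probe sets of Eif1ax were called higher, and the highest control array was above the lowest krill array. Eif1ad, an eIF1A-domain protein, read 971, 1027 and 1084 in control and 953, 1463 and 2814 in krill arrays (0.54, SE 0.20, adjusted p = 0.0308), and 6 of the 14 fits that left out 1 array lost the call, as did the average of its 2 probe sets (0.18, adjusted p = 0.298). These 3 genes were called without the 4 krill arrays too, at 0.57, 0.61 and 0.47, and under spike-in scaling they were at 0.05, -0.27 and -0.24 and not called. Eif1a, the other eIF1A gene, gave -0.22 (adjusted p = 0.521). The Eif1a/Eif1ax ratio fell by 0.74 on the log2 scale (exact permutation p = 0.0239, adjusted p = 0.0287), and by 0.28 without the 4 arrays (exact permutation, adjusted p = 0.417).

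The late factors were divided too. Eif5, the GTPase activator for eIF2, read 9893, 11613 and 12955 in control and 7052, 11175 and 14131 in krill arrays (-0.03, SE 0.16, adjusted p = 0.904). Eif5b, the GTPase that joins the large subunit, read 752, 799 and 1182 in control and 352, 469 and 837 in krill arrays (-0.71, SE 0.20, adjusted p = 0.00642), and -0.29 (adjusted p = 0.225) without the 4 arrays. The krill arrays overlap the control range for both. The other probe set of Eif5b past the filter gave -0.15 and was not called. Averaged over its probe sets Eif5b was called lower, at -0.43 (adjusted p = 0.0383, limma). Eif5a, the hypusine-bearing factor that also serves elongation, rose without overlap, from 25808, 27118 and 30778 in control to 31039, 41861 and 59431 in krill arrays (0.61, SE 0.15, adjusted p = 0.00341). Eif6, which keeps the free large subunit from joining too early, read 1671, 2042 and 2247 in control and 2134, 3416 and 4584 in krill arrays (0.66, SE 0.17, adjusted p = 0.00469). Both remained called without the 4 krill arrays, at 0.38 and 0.71, and both turned negative under spike-in scaling (-0.18 and -0.12). Quantile normalization left Eif5a at 0.045 (adjusted p = 0.726). Eif5a2, the second eIF5A gene, was below the filter, at 38.5 ± 32.8 over the control and 163 ± 83.0 over the krill arrays (SD, n = 7 each), and Eif4a3, a helicase of the exon junction complex, read 34.0 ± 31.3 and 27.2 ± 14.9. With no filter their changes were 1.82 (adjusted p = 0.004) and -0.07, where the median change of all genes was 0.32. Values this low may be background.

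Spread within a diet differed between the groups. The coefficient of variation of the 44 tested members was 4.79% to 37.0% in control livers (median 12.7%) and 11.8% to 98.6% in krill livers (median 32.8%), wider in krill for 40 of the 44. No such count over all tested genes is given here, so the wider spread is not shown to be particular to initiation factors. In 14 members krill replicates 2, 4, 5 and 7 all lay below replicates 1, 3 and 6, against 12.8% of all tested genes, and in 6 they all lay above, against 18.6%. The first set holds Eif2a, Eif2s3x, Eif2s3y, Eif2b1, Eif2ak1, Eif3l, Eif3m, Eif4a1, Eif4a2, Eif4b, Eif4h, Eif4e, Eif5 and Eif5b, and the second holds Eif2d, Eif2ak2, Eif2ak3, Eif3e, Eif3h and Eif4e3. These sets of krill arrays were divided on the spike-in level, which therefore differs between them by construction. Its part in the values was not tested.

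Without those 4 krill arrays, limma called 13 members higher and 11 lower, against 12.7% and 19.6% of all genes (32.3% in all), and the median change was 0.18. Of the 29 calls over all arrays 22 were kept in the same direction, 13 higher and 9 lower. The lost calls were Eif2a, Eif2s3y, Eif2b1, Eif2ak2, Eif4e3, Eif4ebp1 and Eif5b, and Eif2ak3 and Eif4enif1 were called lower instead. With the eIF3 subunits the count was the same as over all arrays, 6 higher and 4 lower. The spike-in level as a covariate kept 10 of the rises and 3 of the falls. Lost there were the calls of Eif1ad, Eif1b, Eif2a, Eif2s3y, Eif2b1, Eif2ak1, Eif2ak2, Eif3b, Eif3c, Eif3l, Eif4h, Eif4e, Eif4e3, Eif4ebp1, Eif5a and Eif5b.

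**Figure D4:**
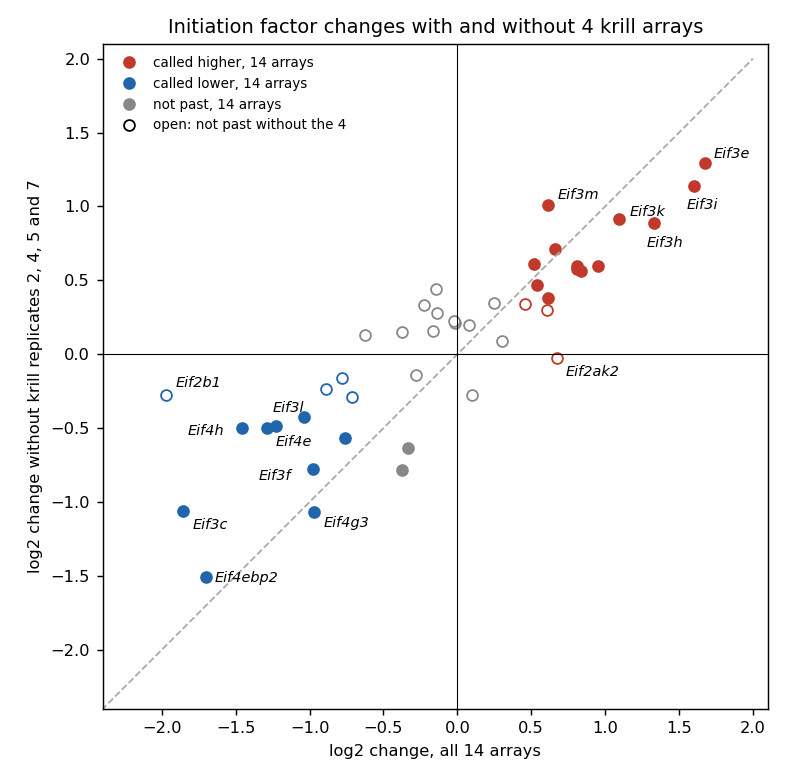
Log2 change of each tested initiation factor over all 14 arrays (horizontal axis) against the change without krill replicates 2, 4, 5 and 7 (vertical axis), with equal changes on the dashed line. Open points did not pass without the 4 arrays, and points keep the colour of their call over all arrays. Eif2b1 moves from -1.97 to -0.27 and Eif2ak2 from 0.67 to -0.02, while Eif3e, Eif3i and Eif4ebp2 stay beyond 1 in size. The points share the control arrays and 3 krill arrays.

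Most genes were read by several probe sets, which gave a second view of each call. Of the 29 tested members with several probe sets past the filter, 9 had every one of them called in the same direction: Eif1ax, Eif2a, Eif2ak1, Eif3c, Eif3e, Eif3i, Eif4e3, Eif4ebp2 and Eif5a. The share over all 4759 such genes was 19.4%. In 3 none was called (Eif1a, Eif2s3x and Eif4e2), against 29.9%. Among the genes that did not pass, a further probe set was called lower not only for Eif2s2, Eif3a and Eif4a1 but also for Eif4b (-0.80), Eif4g2 (-0.65) and Eif5 (-0.48). The calls here come from a fit over all probe sets past the filter, in which the probe sets shown for Eif2ak2 and Eif3m reached adjusted p = 0.0534 and 0.053 and were not called.

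**Figure D5:**
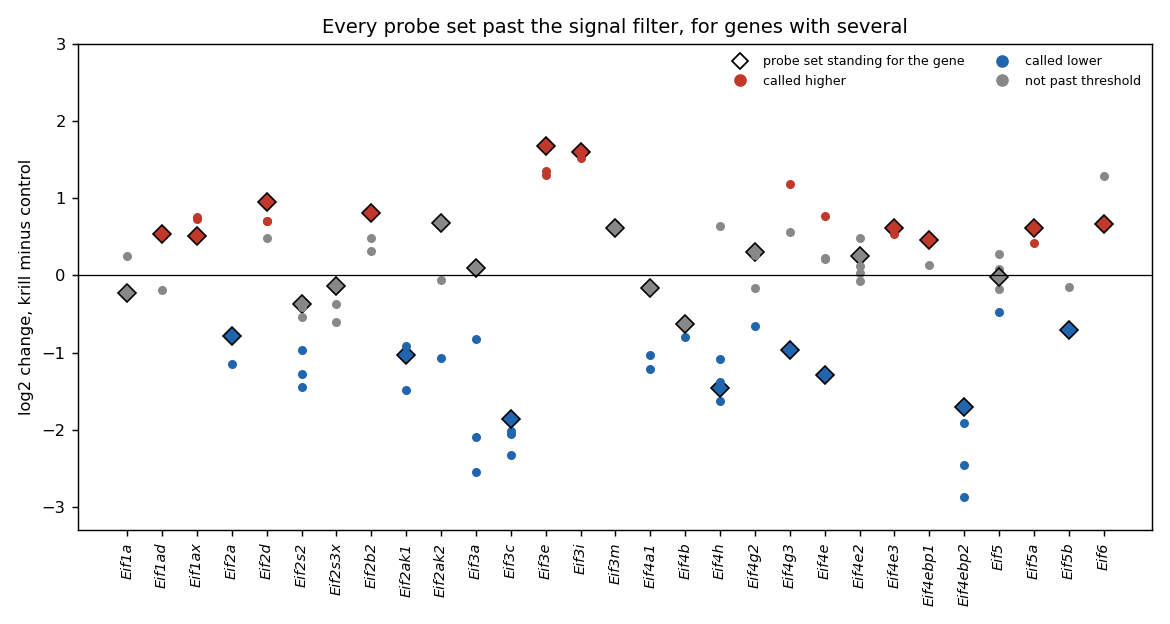
Log2 change, krill minus control, of every probe set past the signal filter for the 29 tested initiation factors with several, with the probe set standing for the gene as a diamond. Colours give the call in a fit over all probe sets. For Eif4ebp2 and Eif3c all 4 lie below -1.5, for Eif3a they run from 0.10 to -2.54, and Eif4e and Eif4g3 have calls on both sides of 0.

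Genes that control eIF4E and eIF4A from the mTORC1 side were looked at from a list of 18, of which 17 were tested. Of these, 3 were higher and 5 lower, against 22.9% and 24.8% of all genes, with a median of -0.35. Under median centring the split was 0 and 9, against 8.85% and 33% of all genes. Spike-in scaling gave 0 and 12, against 2.95% and 48.2%. Mknk2, a kinase that phosphorylates eIF4E, fell from 5537 ± 816 in control to 880 ± 726 in krill livers (SD, n = 7 each), a log2 change of -2.91 (SE 0.30, adjusted p = 1.05e-05), without overlap. Tsc2, a brake on mTORC1, fell from 597 ± 202 in control to 76.7 ± 69.8 in krill livers (SD, n = 7 each), a change of -3.01 (SE 0.41), also without overlap. Pdcd4, an inhibitor of eIF4A, fell by 1.18 and Akt1s1, the mTORC1 subunit PRAS40, by 0.76 on the log2 scale. All 4 were called lower without the 4 krill arrays as well. The genes called higher, named after their values were seen, were Rheb (0.53), the GTPase that activates mTORC1, Rps6 (0.72) and Ddit4 (1.09), a stress-induced inhibitor of mTORC1. Mtor itself gave -0.29 (adjusted p = 0.358), and its other probe set was called higher at 0.73 (adjusted p = 0.0459). Deptor, named after its values were seen, was counted as not past at -0.35, but its other probe sets were called lower, at -1.12 to -2.97.

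Of 18 genes written for the eIF2 phosphatases and the integrated stress response, the programme downstream of eIF2 phosphorylation, 16 were tested. Of these, 2 were higher and 4 lower (median -0.17), against 22.9% and 24.8% of all genes. Without krill replicates 2, 4, 5 and 7 the split was 4 higher and 2 lower, against 12.7% and 19.6%. The spike-in covariate gave 3 and 2, against 6.99% and 10.5%, and spike-in scaling 0 and 8, against 2.95% and 48.2%. Atf5 (-1.80, adjusted p = 3.56e-05) and Cebpb (-1.76, adjusted p = 9.5e-05), transcription factors of that programme, fell, and Ppp1ca, a catalytic subunit of the phosphatase that restores eIF2, rose (1.05, adjusted p = 0.000242). Atf4, its central factor, fell from 2693 ± 311 in control to 1616 ± 523 in krill livers (SD, n = 7 each), a change of -0.78 (SE 0.18, adjusted p = 0.00218), and its target Ddit3 (CHOP) was at -0.88 (adjusted p = 0.0101). Without the 4 krill arrays Atf4 was at -0.35 (adjusted p = 0.0828) and Ddit3 at -0.57 (adjusted p = 0.0665), and neither passed. The other probe set of Atf4 gave -0.05. Beside Ppp1ca the gene called higher was Ddit4, and without the 4 arrays Dnajc3 (0.55) and Cebpg (0.54) were called higher too, all 3 named after their values were seen. Ppp1r15a, the inducible phosphatase regulator GADD34, gave -0.30 (adjusted p = 0.335).

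Of 19 poly(A)-binding proteins and other helpers of initiation 18 were tested. Of these, 4 were higher and 4 lower (median -0.12), against 22.9% and 24.8% of all genes. Under median centring the split was 1 and 5, against 8.85% and 33%, and under spike-in scaling 1 and 11, against 2.95% and 48.2%. Pabpc1, the poly(A)-binding protein that contacts eIF4G, fell from 12398 ± 2408 in control to 3946 ± 2298 in krill livers (SD, n = 7 each). The change of Pabpc1 was -1.82 (SE 0.28, adjusted p = 9.11e-05), while its other probe set gave 0.15 (adjusted p = 0.632). Its antagonist Paip2 rose (0.82, adjusted p = 0.000358), as did Mcts1, a partner in reinitiation (0.89, adjusted p = 0.00152), and the helicase Dhx9 fell (-1.51, adjusted p = 3.32e-05). Paip1, named after its values were seen, was counted as higher at 0.56, but its other probe sets were called lower at -0.62 and -0.91.

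Elongation and termination genes also went both ways, with 5 of 12 tested higher and 4 lower (median -0.02), against 22.9% and 24.8% of all genes. Under spike-in scaling the split was 2 and 6, against 2.95% and 48.2%. Etf1, named after its values were seen, was counted as not past at -0.06, but its other probe sets were called higher, at 0.58 to 1.42. Eef1e1 (1.70), a scaffold of the tRNA synthetase complex, and Eef1b2 (1.49), an exchange factor for eEF1A, rose, while Eefsec (-2.26), the selenocysteine elongation factor, and Eef2 (-1.68), the translocase, fell. Eef2 read 19755 ± 2386 over the control and 7619 ± 5471 over the krill livers (SD, n = 7 each), and without the 4 krill arrays its change was -0.72 (adjusted p = 0.00978). Of 7 mitochondrial initiation and elongation factors tested, 1 was higher (Mtif3, 1.02) and 4 lower, against 22.9% and 24.8% of all genes. Those called lower included Gfm2 (-1.16), Gfm1 (-1.21) and Mtif2 (-0.99). Without the 4 krill arrays Gfm1 (-0.45, adjusted p = 0.0692) and Mtif2 (-0.14, adjusted p = 0.58) did not pass. Spike-in scaling gave 0 mitochondrial genes higher and 5 lower, against 2.95% and 48.2% of all genes. The probe sets of Gfm2 disagree, with the other called higher at 0.95 (adjusted p = 0.031).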

How the data were processed

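Per the labels, biotin-labelled liver cRNA of 7 mice per diet was read on Affymetrix arrays, 1 mouse each. The deposited values are linear signal intensity per probe set, made with MAS5 per the submitters' processing notes (version not given in the sources used here). Deposited arrays share a trimmed mean of 499.7 to 499.8 but no common distribution, and no detection calls were used, so a low value may be background.

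Groups came from the sample titles. Intensity was taken as log2(signal + 16), which understates folds of dim genes. The upper 50% of non-control probe sets by mean log2 value, 22518 of 45101, were kept, and each gene was read from the one of highest mean. Limma 3.58.1 (R 4.3.3; lmFit and trended eBayes) compared the diets without covariates, with p-values adjusted by Benjamini-Hochberg over 11308 genes at 0.05. The number of arrays limits the precision, and p-values cover the spread of animals and arrays together. Gene ratios and quality measures were compared by exact two-sided permutation over 3432 assignments. Python 3.11.15, numpy 2.4.6, pandas 2.3.3 and matplotlib 3.10.9 made the tables and figures.

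Members, gene lists and alternatives were chosen with earlier results of these data known. Array ranges are given for the 3 members with the smallest p per factor group and a panel of 16 genes; from related lists up to 4 of smallest p and a panel of 6 are named. All 47 members were found in the RefSeq gene table of GRCm38.p6 under the same symbol. Tested on simulated data (7 against 7 arrays, 11308 genes, no difference in array quality), limma found 58 of 100 genes with a log2 change of 1, 89 of 100 with a change of 2, and 11 of 11108 without change. Alternatives were other pseudocounts (1, 64), normalizations, filters, probe set choices, covariates, a replicate block and arrays left out.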

Additional observations from a re-analysis of the deposited data

Results flagged for a closer look

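Each tested gene and each of the 6 gene ratios was examined within each diet. In 5 of these 100 sets of 7 arrays, all 5 of single genes, a single array stood apart from its group by Dixon's criterion, and chance gives about 1 in 20. Values are log2 of signal with 16 added. Krill replicate 7 was the low array for 2 genes: Eif4e2 read 10.27 there, with the next at 11.07, and Eif5 read 12.79, with the next at 13.43. Krill replicate 2 was low for Eif2b3, at 7.41 with the next at 8.77. In control livers, replicate 5 was low for Eif2ak1, at 9.96 with the next at 10.14, and replicate 1 was low for Eif4e, at 10.86 with the next at 11.08. Eif2ak1 and Eif4e were called lower in krill livers, and these low control arrays still lay above every krill array.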

How the results depend on the processing

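Array quality sets the limits. With the 3'/5' index as a covariate all counts of called genes were 0, for all genes, for each direction, for eIF3 and for every related list, and the changes turned to 0.70 for Eif1a, 0.057 for Eif2s2, 0.60 for Eif2s3x, 0.41 for Eif2b1, 0.36 for Eif2b5, -0.064 for Eif2ak2, -0.77 for Eif3a, 0.15 for Eif4a1, 0.34 for Eif4a2, 0.14 for Eif4b, -0.17 for Eif4g2, 0.39 for Eif5 and 0.25 for Mtif2. With the spike-in level as a covariate limma called 1978 genes in all, 10 members higher and 4 lower, 1 eIF3 subunit lower, 5 genes of the poly(A) list, 4 of the elongation list and 1 of the mitochondrial list; changes turned to 0.37 for Eif1a, 0.15 for Eif2s2, 0.43 for Eif2s3x, 0.25 for Eif2b5, -0.052 for Eif2ak2, -0.29 for Eif3a, 0.16 for Eif4a1, 0.27 for Eif4a2, 0.20 for Eif4b and 0.29 for Eif5. Without krill replicates 2, 4, 5 and 7 the mitochondrial list had 2 calls, the ratios gave -0.28 (Eif1a/Eif1ax) and -0.40 (Eif2ak1/Eif2ak2), and changes turned to 0.33 for Eif1a, 0.15 for Eif2s2, 0.44 for Eif2s3x, 0.21 for Eif2b5, -0.024 for Eif2ak2, -0.28 for Eif3a, 0.16 for Eif4a1, 0.28 for Eif4a2, 0.13 for Eif4b and 0.23 for Eif5. Spike-in scaling gave 2 members higher, 22 lower and 2 eIF3 subunits higher, with -0.24 for Eif1ad, -0.27 for Eif1ax, -0.69 for Eif2b4, -0.086 for Eif2ak2, -0.68 for Eif3a, -0.17 for Eif3m, -0.48 for Eif4g2, -0.53 for Eif4e2, -0.16 for Eif4e3, -0.33 for Eif4ebp1, -0.18 for Eif5a and -0.12 for Eif6. Median centring gave 5 members higher, with -0.32 for Eif2b4, -0.30 for Eif3a, -0.10 for Eif4g2 and -0.15 for Eif4e2. Of the 16 rises median centring kept 5 and of the 13 falls it kept 13. Quantile normalization lost the calls of Eif2a and Eif5a and turned Eif2b5 (0.21) and Eif4a1/Eif4a2 (0.13), and array weights turned Eif2b5 (0.032), Eif3a (-0.02) and Eif5 (0.013). Averaging the probe sets of each gene gave 3 calls in the mitochondrial list, lost the calls of Eif1ad, Eif2ak2, Eif4g3, Eif4e and Eif4ebp1, and turned Eif1a (0.013), Eif2ak2 (-0.15), Eif3a (-1.34), Eif4g2 (-0.064), Eif4g3 (0.26) and Mtor (0.22). Counting a gene only if every probe set past the filter was called left 9 members higher, and the linear-scale choice of probe set turned Eif3a (-0.82); both were added after the values were seen. Over these settings the cause of a turn was not tested.

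With the replicate number as a block 27 of the 29 calls were kept, 14 higher and 13 lower; Eif3m and Eif4ebp1 were lost. Correlations of same-numbered arrays ran from -0.023 to 0.098, and an array correlated best with its own number in 1 of 7 cases. The sample titles do not say what the number stands for. Low correlations cannot show that same-numbered arrays share nothing else.

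Leaving out each array in turn gave 4680 to 6147 for all genes past the threshold, 12 to 16 members higher and 13 to 14 lower, 5 to 6 eIF3 subunits higher and 4 lower, 7 to 12 calls in the mTORC1 list, 6 to 7 in the stress response list, 7 to 10 in the poly(A) list, 8 to 9 in the elongation list and 4 to 5 in the mitochondrial list. Ratios ran from -0.92 to -0.63 (Eif1a/Eif1ax, not past the threshold without control replicate 2, 3 or 5 or krill replicate 2, 4 or 5), -2.01 to -1.44 (Eif2ak1/Eif2ak2), -0.090 to 0.011 (Eif4a1/Eif4a2 ratio), 0.76 to 0.89 (Eif4b/Eif4h), -1.72 to -1.33 (Eif4e/Eif4e2) and 1.92 to 2.38 (Eif4ebp1/Eif4ebp2 ratio). Eif3a turned to -0.066 without krill replicate 7, Eif2b5 ran from -0.071 to 0.094 and Eif5 from -0.079 to 0.088. Calls were lost for Eif2ak2 in all of these fits but those without control replicate 4 or krill replicate 1, 3 or 6, and for Eif3m in all but those without control replicate 2 or 5 or krill replicate 2 or 7. Eif1ad lost its call without control replicate 1, 3 or 7 or krill replicate 2, 4 or 6, and Eif4ebp1 without control replicate 2, 4 or 6 or krill replicate 2 or 4. Eif3e, Eif3f, Eif3i and Eif4ebp2 were called in the same direction under all 28 settings fitted other than the 3'/5' index.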
